A study of Arabidopsis thaliana with 6 samples.

Results

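The 3 libraries described here are the mock-treated libraries, chosen by their sample labels, out of 6 in the series; the other 3 received dexamethasone (Dex) and were not analysed here. All 6 came from *Arabidopsis thaliana* plants in the Col-0 background that carried *pPXY:GR-ARF5ΔIII/IV*, labelled PXY:GR-MPΔIII/IV, so the mock plants were transgenic and not wild type. In this transgene the promoter of *PXY*, a receptor kinase gene of the cambium, drives AUXIN RESPONSE FACTOR5 (ARF5, also called MONOPTEROS or MP) without its domains III and IV and fused to the glucocorticoid receptor, a fusion that is held inactive in the cytoplasm until Dex is given. Plants spent 3 weeks in short days of 8 h light and were then moved to long days of 16 h light. At 15 to 20 cm they were briefly dipped shoot first in the mock solution, returned to long days and watered with mock solution. The dipping solution was tap water with Silwet and ethanol, the solvent of the Dex stock. The second internode of the inflorescence stem was frozen 3 h later. The methods give 3 biological replicates of 3 plants each, whereas the deposited design text speaks of RNA pooled from 3 samples, so the spread between libraries may hold both biological and technical variation.

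The second internode of an *Arabidopsis* inflorescence stem is a young, green stem segment. From the outside inwards it holds an epidermis with a waxy cuticle and stomata, a photosynthetic cortex, a starch sheath, interfascicular fibres, and vascular bundles in which phloem and xylem are separated by the procambium or fascicular cambium, with pith in the centre. Xylem vessels and fibres deposit a thick secondary wall of cellulose, xylan and lignin, and vessel elements then die. Each library is a mixture of these tissues, and a lower level of a gene through fewer cells of a type cannot be told apart from less RNA per cell.

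The libraries held 22892239, 25482502 and 23473739 reads assigned to genes in mock replicates 1, 2 and 3, an order kept below wherever 3 values are given. Between 96.8% and 96.9% of these reads mapped uniquely and between 0.304% and 0.371% fell in introns. Levels are the authors' RPKM, exon reads per kilobase of exon and per 1000000 gene reads, so that 10 reads over 1000 bases of exon correspond to between 0.392 and 0.437 RPKM. Errors after ± are SDs over the 3 libraries (n = 3 throughout), and intervals and floors cover counting error only. No groups were compared, and every statement below is a description without a test.

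Of 27196 genes with an exon length, 16660 were detected, that is, at 1 RPKM or more in all 3 libraries, which is 61.3% of them. A further 5617 genes (20.7%) had no read in any library, in exons or introns. Mean levels reached 10 RPKM in 10210 genes, 100 RPKM in 1324 genes and 1000 RPKM in 63 genes. The median over the 17421 genes of mean level 1 RPKM or more was 13.1 RPKM. The pool was not dominated by a few transcripts: the 10 genes with the most reads took 5.45, 5.30 and 4.98% of a library, or 5.25% ± 0.237. The 100 genes with the most reads took 18.4% ± 0.643, and 50% of the reads were reached with between 1088 and 1219 genes. *CAT3* (AT1G20620), which encodes a catalase that breaks down hydrogen peroxide, had the most reads in every library, with 1.14, 1.302 and 0.973% of them. Of the 10 genes with the most reads in each library, 7 were the same in all 3.

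Ranked by RPKM, the 20 highest genes had means between 2264 and 7969 RPKM and took 7.13% ± 0.301 of the reads together. The row of AT2G39180 came first, with 7423, 9473 and 7011 RPKM. The identifier of this row is in doubt. The reference annotation gives AT2G39180, a receptor kinase gene named *CCR2* for CRINKLY4-RELATED2, an exon length of 2619 bases, but the row carries 836 bases. The other gene named *CCR2*, AT2G21660, encodes a glycine-rich RNA-binding protein and has 785 annotated bases, while its own row carries 2515. Both rows came closer to the annotated lengths with the identifiers exchanged. By length, the first row thus fits the RNA-binding protein gene better than the receptor kinase gene. The reads themselves were not checked.

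Photosynthesis genes came next. *RBCS1A* (AT1G67090, chr1:25048158-25049667, minus strand), a small subunit of Rubisco, had 6590.3, 3594 and 6548 RPKM. *LHCB1.3* (AT1G29930), a light-harvesting protein of photosystem II, had 5891, 3536 and 5227 RPKM, and *LHB1B2*, another protein of that complex, had 4462, 2936 and 3788 RPKM. *PSBR*, a subunit of photosystem II, had 2881, 2223 and 2619 RPKM. In each of these 4 genes mock replicate 2 was the lowest library, as it was in 30.4% of all genes of mean level 1 RPKM or more. *RBCS3B*, the last of the 20, showed the widest gap, with 2804, 969 and 3019.6 RPKM, although only 73.8% of its reads were unique and the rest may belong to other *RBCS* copies.

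The other highly expressed genes were a mixed group. *CAT3* had 5452, 6232 and 4657 RPKM. *PRXR1*, a class III peroxidase, had 2495, 3129.6 and 2318 RPKM, and *GSTF9*, a glutathione S-transferase, had 2928, 2861 and 2602 RPKM. These 3 genes encode enzymes that act on peroxides or conjugate glutathione. Dehydrins, hydrophilic proteins known from drying and cold, were represented by AT1G54410 at 4438, 4277 and 4106 RPKM and by *ERD14* at 2543, 2153 and 2768 RPKM. *RCI2A*, a small membrane protein named for its induction by cold, had 2701, 1652 and 2498 RPKM. AT1G54410 was the steadiest of the 20, with 4274 ± 166 RPKM.

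The remainder was of several kinds. *DOT1* (AT2G36120), a glycine-rich protein gene named from a leaf vein patterning mutant, had 3831, 4489 and 3522 RPKM. *GRP-3*, also glycine-rich, had 3359, 3566 and 2575 RPKM. AT2G45180, of the lipid-transfer protein superfamily, had 3525, 3235 and 3088 RPKM. *MT2B*, a metallothionein, had 2364, 3241 and 2151 RPKM, but only 21.5% of its reads were unique. *TCTP*, the translationally controlled tumour protein, had 3255, 4160.5 and 2734 RPKM. The uncharacterized AT1G67865 had 2974, 5199 and 3124 RPKM, the oleosin-like AT1G13930 had 3353, 3608 and 3231 RPKM, and AT1G62480, a vacuolar calcium-binding protein-like gene, had 3092, 2824 and 3144 RPKM. The ranks within the 20 should be read loosely: of 19 pairs of neighbours in the order, 18 had overlapping values.

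**Figure D1:**
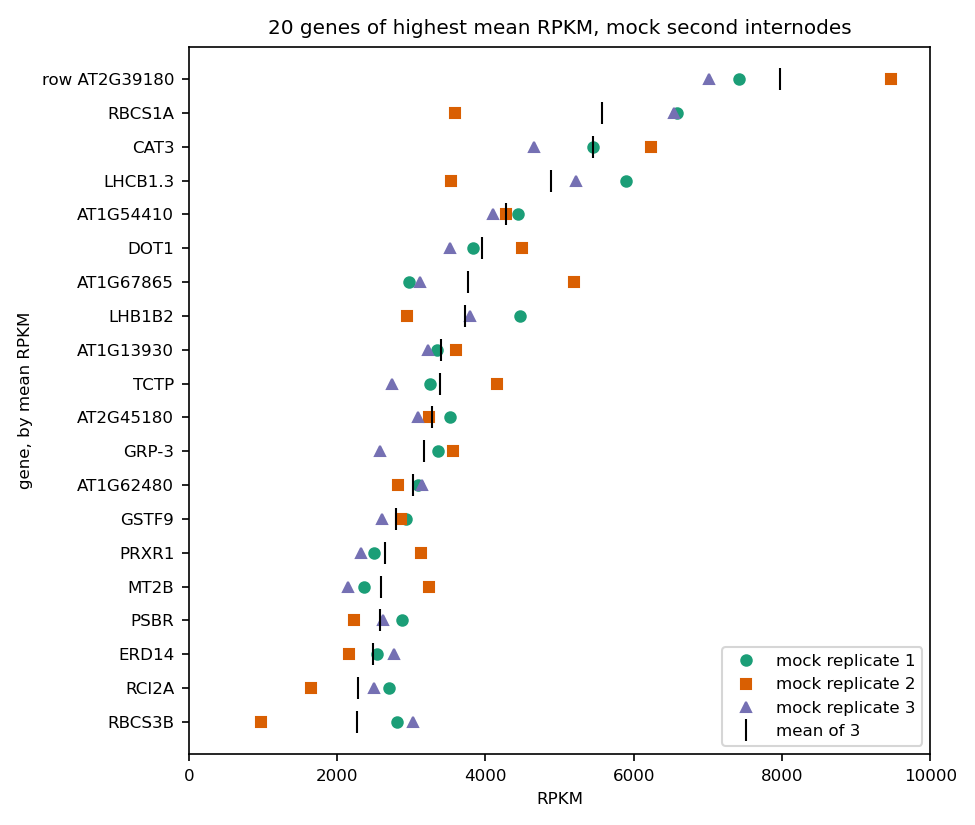
RPKM (linear x axis) of the 20 genes of highest mean level, 1 gene per line, with a symbol for each mock replicate and a bar at the mean of 3. Replicate 2 lies left of replicates 1 and 3 in all 5 photosynthesis genes shown (*RBCS1A*, *LHCB1.3*, *LHB1B2*, *PSBR* and *RBCS3B*) and farthest right for the row of AT2G39180, at 9473.

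Stretches of sequence upstream of highly expressed genes are shown because the tables place whole gene sets at very different levels and some of their members carry known promoter motifs. Each motif searched was missing from most members of its set. All were read from the RefSeq sequence of TAIR10.1 in the 250 bases before the annotated gene start, 60 bases per stretch, on the strand of the gene. A TATA box lies near the start of many, but not all, plant genes. In the last 60 bases before the start, the letters TATAAA were found in 5 of the 20 highest genes by level and in 16% of the 100 highest, against 12.9% of 26695 genes with such a window. Of the 5, *LHB1B2*, *MT2B* and *RCI2A* held them at 31, 34 and 38 bases from the start. The 20 include AT2G39180, whose row is in doubt and whose window held no match. In sets described below, they were found in 3 of 39 photosynthesis genes (7.69%), 1 of 21 secondary wall genes (4.76%) and 44 of 356 ribosomal protein genes (12.4%). Capitals mark the match:
LHB1B2, chr2:14523569-14523628, minus strand: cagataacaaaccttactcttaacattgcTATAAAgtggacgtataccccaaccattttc
MT2B, chr5:507245-507304, minus strand: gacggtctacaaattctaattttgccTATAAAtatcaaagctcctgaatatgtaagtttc
RCI2A, chr3:1756925-1756984, minus strand: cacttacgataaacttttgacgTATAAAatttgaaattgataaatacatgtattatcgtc

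The photosynthesis list of 39 nuclear genes was searched for the G-box (CACGTG, its own reverse complement) and the I-box (GATAAG), both known from promoters of *RBCS* and light-harvesting genes, on both strands of the 250 bases. The G-box was found in 6 of 39 members (15.4%), against 6.58% of all genes, and the I-box in 11 members (28.2%), against 12.2%. Of the genes with mean level of 1 RPKM or more, 7.29% held the G-box and 12.4% the I-box. *RBCS2B* and *PSBQ-2* held both, and the 2 stretches of *RBCS2B* overlap. Capitals mark the G-box in the first 3 stretches and the I-box in the last 3:
LHCA4, chr3:17495089-17495148, minus strand: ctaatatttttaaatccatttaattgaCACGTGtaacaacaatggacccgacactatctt
LHCB4.1, chr5:208765-208824, plus strand: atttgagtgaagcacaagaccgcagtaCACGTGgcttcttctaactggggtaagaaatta
RBCS2B, chr5:15382162-15382221, minus strand: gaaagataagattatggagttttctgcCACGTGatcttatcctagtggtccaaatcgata
RBCS2B, chr5:15382133-15382192, minus strand: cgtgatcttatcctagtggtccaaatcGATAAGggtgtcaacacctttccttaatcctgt
PSAF, chr1:11216175-11216234, minus strand: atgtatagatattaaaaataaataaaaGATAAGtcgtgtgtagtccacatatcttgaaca
RCA, chr2:16573793-16573852, minus strand: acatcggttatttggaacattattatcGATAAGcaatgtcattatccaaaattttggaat

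The telo box (AAACCCTA, searched on both strands), known from promoters of plant ribosomal protein genes, was found in 51 of 356 ribosomal protein genes of mean level 1 RPKM or more (14.3%), against 4.45% of all genes. A motif match is a description of letters and not a site of binding. The first of these stretches has the telo box on the strand of the gene and the last on the other strand:
AT4G27090, chr4:13595268-13595327, minus strand: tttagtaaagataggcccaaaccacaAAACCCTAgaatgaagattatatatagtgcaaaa
AT3G11120, chr3:3480960-3481019, plus strand: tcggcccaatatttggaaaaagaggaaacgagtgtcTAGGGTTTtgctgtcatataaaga

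Tissue programmes were then read from 33 gene lists covering stem tissues, walls, organs other than stems and responses to treatment. The share of list members detected is to be read against the 61.3% of all genes. The photosynthetic programme was complete: 39 of 39 members were detected, with a median of 809.9 RPKM against 4.78 RPKM over all genes with an exon length, and 38 of them had means of 100 RPKM or more. The list took 4.97, 2.81 and 4.75% of all reads. The defining genes of green tissue, *RBCS1A*, *RCA* and *LHCB1.1*, were above the threshold. *RCA*, which encodes Rubisco activase, had 809, 468 and 814 RPKM. *LHCB1.1* had 152, 49.8 and 122 RPKM, with 74.6% of its reads unique. The lowest members were *PETE1*, a plastocyanin, with 83.2, 60.3 and 88.5 RPKM, and *LHCB1.1*.

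The photosynthesis list also carried the clearest difference between libraries. Its summed level was 48446, 27362 and 46329 RPKM, that is, 40712 ± 11610 RPKM, and 47387 RPKM as the mean of replicates 1 and 3. Mock replicate 2 was the lowest library in 39 of 39 members, whereas it was the lowest in 30.4% of all genes of mean level 1 RPKM or more. The median member was 0.79 lower on the log2 scale in replicate 2 than the mean of the other libraries (-0.79), whereas the median of all genes was 0.07 higher. For 8 members the library stood apart, a term used for a level at least 2-fold below or above both others while those lie within 1.5-fold of each other, and all 8 were below; 1.15% of all genes were below in this library. *RBCS2B* had 1158, 339 and 1196 RPKM with 68.7% unique reads, and *LHCB6*, an antenna protein named here after its values were seen, had 617, 243 and 567 RPKM. Copies with shared reads were not the only ones involved: *LHCB3*, named likewise, had 99.4% unique reads and 998, 414 and 901 RPKM.

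Of 22 members of the epidermis and cuticle list, 17 were detected. *CER6*, a condensing enzyme of wax synthesis, was steady at 163, 159 and 153 RPKM. *MAH1*, a midchain alkane hydroxylase of stem wax, had 198, 102 and 189 RPKM. *CER1*, needed for alkane formation, had 123, 31.4 and 160.0 RPKM, and *CER10* had 103, 74.7 and 109 RPKM. Wax genes differed in their spread: *CER1* and *MAH1* were lowest in replicate 2, and *CER6* was at 158 ± 5.26 RPKM. *ATML1*, a regulator of epidermal identity, was at 3.01, 2.88 and 2.93 RPKM and *FDH* at 31.5, 28.7 and 31.3 RPKM, whereas *PDF1*, the fourth defining marker, had no read; a count of 0 allows up to 3 reads over the libraries, or 0.0336 RPKM. *SHN1* and *GL1*, a regulator of trichome formation, were also at 0. The summed level of the list was 1029, 641 and 1032 RPKM, and replicate 2 was lowest in 14 of the 17 members of mean level 1 RPKM or more, against 30.4% of all genes (median -0.50, and 0.07 for all genes).

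Of 10 stomatal genes 3 were detected. These were *KAT1*, a potassium channel of guard cells, at 12, 13.9 and 12.1 RPKM, *FAMA*, a regulator of guard cell formation, at 6.24, 6.74 and 5.05 RPKM, and *MYB60* at 2.48, 2.61 and 2 RPKM. *SPCH*, which starts the lineage, had no read, with a limit of 0.0381 RPKM, and *TMM* had 0.275, 0.272 and 0.0268 RPKM. The other members, named after their values were seen, were *STOMAGEN* with a mean of 1.44 RPKM, *EPF1* with 0.492 RPKM, *MUTE* with 0.117 RPKM, *EPF2* with 0.0861 RPKM and *SDD1* with no read. The starch sheath list was complete at 7 of 7, with *SGR5*, needed for stem gravitropism, at 8.96, 8.05 and 7.89 RPKM and *SCR* at 4.82, 3.66 and 7.37 RPKM. *ADG1*, a subunit of ADP-glucose pyrophosphorylase in starch synthesis, was its highest member at 53.8, 52 and 70.1 RPKM.

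Phloem genes were present at moderate levels and with little spread. Of 23 members, 20 were detected, with summed levels of 517, 549 and 543 RPKM. *PP2-A1*, a phloem lectin, had 96.9, 133 and 101 RPKM. *SUC2* (AT1G22710), the companion cell sucrose transporter, had 97.5, 118 and 113 RPKM. The sieve element protein genes *SEOR2* and *SEOR1* had 59.98, 68.8 and 69.3 RPKM and 46.8, 51 and 53.3 RPKM. In these 4 genes replicate 1 was the lowest library, as it was in 12 of the 20 members of mean level 1 RPKM or more and in 37.7% of all genes. At 5 RPKM instead of 1 RPKM, 11 members would count as detected. The regulators lay lower: *APL*, needed for phloem identity, had 5.08, 6.18 and 6.43 RPKM, *NAC086* had 0.733, 1.34 and 0.447 RPKM, and *CLE45* had at most 0.0964 RPKM. An exception to the small spread, chosen after its values were seen, was *SWEET12*, a sucrose exporter, with 50.2, 15.6 and 40.8 RPKM.

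Cambium and procambium genes were detected in 22 of 26 cases, with summed levels of 760.2, 911 and 817 RPKM. The 2 defining markers were clearly above the threshold. *PXY* (AT5G61480), the receptor of the TDIF peptides, had 74.8, 106 and 95.7 RPKM. *WOX4* (AT1G46480, chr1:17236524-17238185, minus strand), a homeobox gene known to promote division in the cambium, had 28.3, 35.6 and 42.6 RPKM. Both were lowest in replicate 1, as were 10 of the 23 list members of mean level 1 RPKM or more and 37.7% of all genes. Genes encoding the TDIF ligands differed in level: *CLE41* had 64.2, 70.9 and 57.7 RPKM, *CLE44* had 9.20, 8.70 and 8.34 RPKM, and *CLE42* had 5.73, 2.06 and 2.07 RPKM. *CLE41* was above *CLE44* and *CLE44* above *CLE42* in every library. The receptor-like kinase genes *RUL1* and *MOL1*, described as a promoter and a repressor of cambium activity, had 11.4, 16.7 and 19 RPKM and 7.67, 8.58 and 8.76 RPKM.

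The highest members of the cambium list were the meristem homeobox genes *STM*, at 114, 144 and 109.9 RPKM, and *BP*, at 114, 103 and 127 RPKM. Of the auxin response factor genes, *ARF4* had 71.1, 112 and 69.3 RPKM, and *ARF3* had 31.1, 31.5 and 26.7 RPKM. *ARF5* (AT1G19850, chr1:6886669-6891404, plus strand) had 66.3, 78.1 and 81.2 RPKM, a value that includes any reads of the *GR-ARF5ΔIII/IV* transcript within the gene; native and transgenic transcripts were not separated. *ATHB8*, a homeobox gene of the procambium and known target of ARF5 in leaves, had 37.9, 47.2 and 36.2 RPKM. *TMO5*, another ARF5 target known from embryos, had 12.2, 16.9 and 11.9 RPKM. At the low end *ERL1* had a mean of 0.0166 RPKM and *ERL2* of 0.182 RPKM. *PXL1*, a paralog of *PXY* named after its values were seen, had only 5.77% unique reads, so its level is uncertain.

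**Figure D2:**
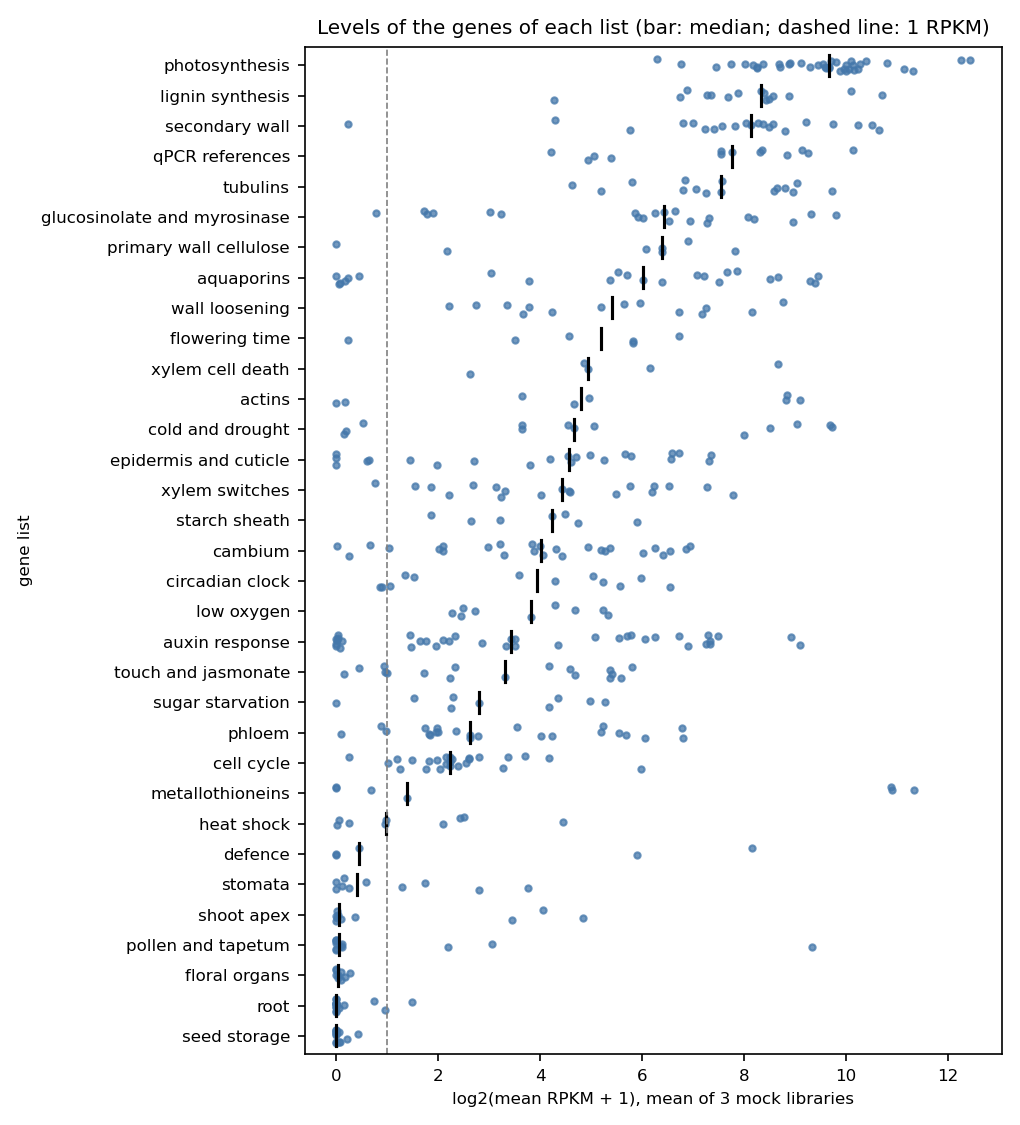
Mean level of every gene of each list, as log2(mean RPKM + 1) over the 3 mock libraries, 1 point per gene, with a bar at the list median and a dashed line at 1 RPKM. Lists are ordered by median, with photosynthesis (809.9 RPKM) at the top and seed storage at the bottom, and the isolated point of the pollen and tapetum list at 647 RPKM is the row labelled *MS2*.

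Secondary wall formation was among the most strongly represented programmes. Of 21 members of the secondary wall list, 20 were detected and 18 had means of 100 RPKM or more, and the list took 1.56, 1.33 and 1.39% of all reads. The 3 cellulose synthases of the secondary wall had similar levels: *CESA4* had 458, 461 and 422 RPKM, *CESA7* had 399, 340.2 and 347 RPKM, and *CESA8* had 355, 330.0 and 313 RPKM. Their order was the same in every library. The highest members were *CTL2*, a chitinase-like gene of cellulose deposition, at 1809, 1715 and 1336 RPKM, and the fasciclin-like arabinogalactan protein genes *FLA11*, at 1557, 1447 and 1363 RPKM, and *FLA12*, at 1442, 884 and 1299.8 RPKM. *IRX9*, of xylan synthesis, had 204, 131 and 173 RPKM. *PRX64*, a peroxidase of lignin polymerization, had 923, 525 and 1146 RPKM, whereas *PRX72* was nearly silent at a mean of 0.174 RPKM. *LAC11* was the other low member, with 18.6, 15 and 22.1 RPKM. Replicate 1 was the highest library in 15 of the 20 members of mean level 1 RPKM or more (22.2% of all genes) and the lowest in 0.

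The transcriptional switches of this programme were detected in 18 of 19 cases. *SND1*, a master regulator of fibre walls, had 74.3, 132 and 66.7 RPKM, and *NST1*, named here after its values were seen, had 72.9, 78.3 and 67.1 RPKM. *NST2*, of the same group and named likewise, had a mean of 20.7 RPKM. The vessel switches *VND1* to *VND7* all had means between 0.687 and 8.87 RPKM, with *VND4* (named likewise) the highest. The lowest were *VND7*, at 1.65, 2.59 and 1.57 RPKM, and *VND1*, at 0.318, 1.39 and 0.349 RPKM. Further down the cascade *MYB103* had 208, 244 and 204 RPKM, *KNAT7* had 150.3, 168 and 143 RPKM, and *SND2* had 83.8, 74.9 and 64.5 RPKM. Vessels and fibres were not separated, so these levels are averages over the internode.

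Lignin synthesis was complete, with 15 of 15 genes detected and a median of 321 RPKM. *CCOAOMT1*, a methyltransferase of the pathway, was highest with 1732, 1747 and 1527 RPKM. The hydroxylase *C4H* had 503, 508 and 415 RPKM and *HCT*, a shikimate transferase, had 379, 429 and 337 RPKM. *4CL2* was lowest at 16.4, 23 and 16 RPKM, whereas *4CL1*, named after its values were seen, had 352, 425 and 302 RPKM. Replicate 2 was the highest library in 14 of 15 members, against 47% of all genes, and the median member was 0.26 above the other libraries on the log2 scale (0.07 for all genes; 0.19 after TMM scaling). *F5H*, of the branch to syringyl lignin and named for its spread, had 88.5, 257 and 139.7 RPKM. The same library was thus the lowest for photosynthesis genes and the highest for most lignin genes. In the secondary wall list, however, it was lowest in 10 of the 20 members of mean level 1 RPKM or more and highest in 2. The shares of all genes were 30.4% and 47%. Whether these patterns had a common source was not tested.

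Genes of xylem cell death were all detected (5 of 5). *XCP2* and *XCP1*, cysteine proteases of vessel elements, had 435, 363 and 419.5 RPKM and 67, 56.3 and 89 RPKM. The metacaspase *MC9* had 19.8, 39.5 and 29.8 RPKM, the ribonuclease *RNS3* had 19.2, 38.5 and 26.9 RPKM and the nuclease *BFN1* had 2.85, 6.38 and 6.19 RPKM. The last 3 were lowest in replicate 1 (37.7% of all genes), and the cysteine proteases were lowest in replicate 2 (30.4% of all genes).

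Cellulose synthases of the primary wall had the lowest median SD of the lists, 0.07 on the log2 scale, with 6 of 7 detected. *CESA3* had 215, 223 and 236 RPKM, *CESA1* had 112, 123 and 123 RPKM, *CESA6* had 79.3, 84.5 and 85.6 RPKM, and *CESA2* had 81, 79.2 and 87.4 RPKM. *CESA9* was at 3.53 ± 0.633 RPKM and *CESA10* at 0, with a limit of 0.0121 RPKM. Genes of wall loosening differed far more between libraries. *XTH4*, a xyloglucan endotransglucosylase, had 513, 148 and 639 RPKM, while *XTH24* of the same family had 142, 149 and 163 RPKM. Expansins differed in which library was highest: *EXPA4* had 212, 367 and 281 RPKM and *EXPA15* had 145, 115 and 170.4 RPKM. The widest spread, in genes named for it, was that of *EXPA8*, at 3.48, 0.675 and 49.2 RPKM, and *EXPA1*, at 13.3, 6.95 and 86.1 RPKM, both highest in replicate 3. Replicate 2 was lowest in 11 of 14 members of the list (median -0.62; 30.4% of all genes).

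Tubulins were all detected (15 of 15), as were 6 of 8 actins. *TUB6* led with 899, 836 and 812 RPKM, followed by *TUA6* with 593, 409 and 573 RPKM, and *TUB1* was lowest with 28.8, 7.49 and 34.7 RPKM. *ACT7* had 519, 535 and 595 RPKM, *ACT2* had 488, 440.0 and 449.5 RPKM, and *ACT8* had 502, 444 and 408 RPKM. The actins known from pollen were near absent: *ACT12* had no read, with a limit of 0.0287 RPKM, and *ACT4* had a mean of 0.132 RPKM. Aquaporins were detected in 17 of 23 cases. The highest were *TIP1;2* of the vacuolar membrane, with 870.2, 559 and 679.9 RPKM, and *PIP2;1* of the plasma membrane, with 839, 587 and 595 RPKM. *TIP5;1*, known from pollen, had no read, and *TIP3;2*, known from seeds, had a mean of 0.0344 RPKM. Metallothioneins were few but high, with 3 of 7 detected: *MT3* had 1539, 2867 and 1387 RPKM and *MT2A* had 1786, 1953 and 1955 RPKM, whereas *MT4A* and *MT4B*, known from seeds, had no read.

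Cell division genes were present at low levels. Of 25 members 22 were detected, with a median of 3.69 RPKM. *CDKA;1*, a cell cycle kinase present also in cells that do not divide, was the highest member at 62.1, 62.5 and 61.2 RPKM. Markers restricted to the cycle were lower: *PCNA2* had 19.1, 16 and 16.2 RPKM, *KNOLLE*, a syntaxin of the cell plate, had 13.4, 10.4 and 12.5 RPKM, *CDKB2;1* had 9.34, 7.83 and 10.9 RPKM, and *CYCB1;1* had 0.761, 0.806 and 1.48 RPKM. At 5 RPKM instead of 1 RPKM, 6 members of the list would count as detected.

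Clock genes were detected in 8 of 12 cases. An evening and a morning group of 4 genes each, set by the time of day at which they are known to peak, differed in level. The other members of the list were in neither group. The evening clock genes *ELF4*, *LUX*, *GI* and *TOC1* summed to 216, 257 and 240 RPKM, whereas the morning genes *CCA1*, *LHY*, *PRR9* and *RVE8* summed to 3.81, 7.78 and 3.78 RPKM. *ELF4* had 79, 104 and 95.1 RPKM, *LUX* had 62.1, 59.6 and 63.8 RPKM, and *LHY*, a morning repressor, had 0.770, 1.26 and 0.593 RPKM. All 4 evening genes were detected, and of the morning genes only *CCA1* was, at 1.49, 2.38 and 1.74 RPKM. The time of harvest is not given in the sources used here.

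Glucosinolate synthesis was strongly represented, with 20 of 21 genes detected. *TGG2* and *TGG1*, myrosinases of the idioblasts that lie along the phloem and of guard cells, had 807, 1128 and 736 RPKM and 447, 624 and 433 RPKM. Genes of aliphatic and indole glucosinolates differed in their summed level. *CYP83A1*, of the aliphatic branch, had 666, 689 and 556 RPKM, *MAM1* had 301, 365 and 218 RPKM, and the aliphatic group, with *MYB28*, *MYB29* and *CYP79F1*, summed to 1376, 1553 and 1111 RPKM. Its indole counterpart of 5 genes, with *CYP83B1*, *CYP79B2*, *CYP79B3*, *MYB34* and *MYB51*, summed to 105, 63.6 and 84.3 RPKM. The order did not hold for each gene, since *MYB28* had a mean of 59.8 RPKM and *CYP83B1* of 63.5 RPKM, and *CYP79F2* was in neither sum. *CYP79F1* and *CYP79F2* lie side by side and are alike in sequence, but with 95.2% and 94.4% unique reads they had mean levels of 270.2 and 2.28 RPKM. *ESM1*, an epithiospecifier modifier, was near 0 at 0.236, 0 and 1.90 RPKM.

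Genes of other organs were nearly absent. Of 16 root genes 11 had no read and 1 was detected, the iron transporter *IRT1* at 1.89, 1.09 and 2.44 RPKM. The defining root genes *COBL9*, *EXPA7*, *RHD6*, *WOX5* and *PLT1* had no read in any library, which allows up to 0.0194 RPKM for *COBL9* and 0.0557 RPKM for *WOX5*. Seed storage genes were detected in 0 of 14 cases, and the highest of them, *SESA1*, had 0.870, 0.167 and 0 RPKM. The list's 14 genes summed to 1.12, 0.167 and 0.598 RPKM. Floral organ genes were detected in 0 of 9 cases: *AG* had no read, with a limit of 0.0257 RPKM, *PI* had 0.399, 0 and 0.195 RPKM, and *AP3* had 0, 0.189 and 0 RPKM. *SEP3* and *SEP4* were not analysed here.

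Of 12 pollen and tapetum genes 3 were detected, counting a row whose identifier is in doubt. The row labelled *MS2* (AT3G11980) had 695, 676 and 571 RPKM, but its exon length of 2668 bases is closer to the 2740 bases annotated for AT3G03780, a methionine synthase also named *MS2*, than to its own 2117 bases. The remaining members, with *PPME1*, *ATA7* and *VGDH1* at 0, did not exceed 10.03 RPKM: *TPD1* had 5.23, 10.03 and 6.56 RPKM and *LAP6* had 3.9, 4.4 and 2.44 RPKM. Shoot apex genes were divided. *WUS* and *CLV3*, which mark the stem cell niche of the shoot apex, had no read, with limits of 0.0339 and 0.0533 RPKM. *KNAT6* had 25.9, 34.6 and 23.3 RPKM, *CLV1* had 13.6, 20.7 and 13 RPKM and *KNAT2* had 8.08, 12.1 and 9.84 RPKM. All were highest in replicate 2, as were 47% of all genes of mean level 1 RPKM or more. Flowering time genes were detected in 5 of 6 cases: *SOC1*, which promotes flowering, had 109.8, 107 and 100.3 RPKM, *SVP* had 56.9, 55.2 and 55.1 RPKM, *FLC*, a floral repressor, had 16.9, 8.84 and 5.32 RPKM, and *FT*, expressed in leaves, had a mean of 0.181 RPKM.

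Auxin response genes ranged over the whole scale. Of 37 members 29 were detected, with a median of 9.85 RPKM. The highest members were *IAA9*, at 529.8, 563 and 547 RPKM, *IAA27*, at 471, 554 and 432 RPKM, and *IAA16*, at 178, 183 and 177 RPKM. Conjugating enzymes of the GH3 family, several of which are rapidly induced by auxin, were low: *GH3.3* and *GH3.5*, named after their values were seen, had 2.27, 4.02 and 2.37 RPKM and 2.04, 1.71 and 2.64 RPKM, and *GH3.1* and *GH3.4* had no read. *IAA17* had the highest SD of the list, with 9.73, 1.99 and 17.8 RPKM. Summed levels over the list were nevertheless 2441, 2499 and 2482 RPKM.

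Genes that respond to handling were read next, since the plants had been briefly dipped and then watered with mock solution. The series holds no undipped plants, so an effect of the dip, the watering or the ethanol and Silwet was not tested. Low oxygen genes were all detected (9 of 9), or 5 of 9 at 5 RPKM: *SUS1* had 38.4, 36.9 and 42.3 RPKM, *ADH1*, alcohol dehydrogenase, had 31.5, 40.6 and 37.6 RPKM, and *LBD41* had 19.98, 33.7 and 20.5 RPKM. Replicate 2 was highest in 7 of the 9 members, against 47% of all genes. Touch and jasmonate genes were detected in 11 of 17 cases and were highest in replicate 1 in 8 of the 12 members of mean level 1 RPKM or more (22.2% of all genes). *VSP1* and *VSP2*, vegetative storage proteins induced by jasmonate, had 82.6, 22.5 and 20.5 RPKM and 73.3, 56.2 and 36.1 RPKM. *TCH3*, a calmodulin-like touch gene, had 58.6, 22 and 41.3 RPKM, and *AOS*, of jasmonate synthesis, was steady at 45.5, 47 and 48.4 RPKM. Heat shock genes were low, with 4 of 9 detected and *HSP18.2* highest at 25.1, 18.19 and 19.6 RPKM.

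Cold and drought genes were detected in 10 of 13 cases, 5 of them with means of 100 RPKM or more. *COR6.6* had 796, 813 and 943 RPKM, *COR47*, a dehydrin, had 843, 529 and 1122 RPKM, *RD29A* had 530.5, 424 and 617 RPKM, and *LTI30* had 345, 320.5 and 425 RPKM. *CBF2*, one of their cold-induced activators, had a mean of 0.138 RPKM and *RD29B* of 0.107 RPKM. Replicate 3 was the highest library in 7 of the 10 members of mean level 1 RPKM or more (30.8% of all genes), with a median of 0.46. Sugar starvation genes were lowest in replicate 3 in 6 of 8 such members (31.9% of all genes; median -0.61): *DIN10* had 37, 39.1 and 15.9 RPKM, *ASN1*, the dark-inducible asparagine synthetase, had 32.6, 14.8 and 11.2 RPKM, and *BCAT2* had 41.3, 46.1 and 25.2 RPKM. Of the defence genes, *PR5* had 321, 198 and 333 RPKM and *PR2* had 69.6, 44.1 and 62.6 RPKM, whereas *PR1* and *PDF1.2* had no read.

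Housekeeping genes gave a scale for these differences. Ribosomal protein genes, picked by their product names, were detected in 353 of 381 cases and took 4.34, 4.85 and 4.36% of the reads, with a median of 82.7 RPKM. The 13 genes commonly used as qPCR references were all detected, with a median SD of 0.12 on the log2 scale. *ACT2* and *EIF4A1*, both named as references in the methods, had 459 ± 25.6 RPKM and 319 ± 50.6 RPKM. *EIF4A1* was highest in replicate 2, with 293, 378 and 287 RPKM. *GAPC2* was highest at 1047, 1317 and 1042 RPKM and *SAND* lowest at 16.6, 16.8 and 19.6 RPKM.

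**Figure D3:**
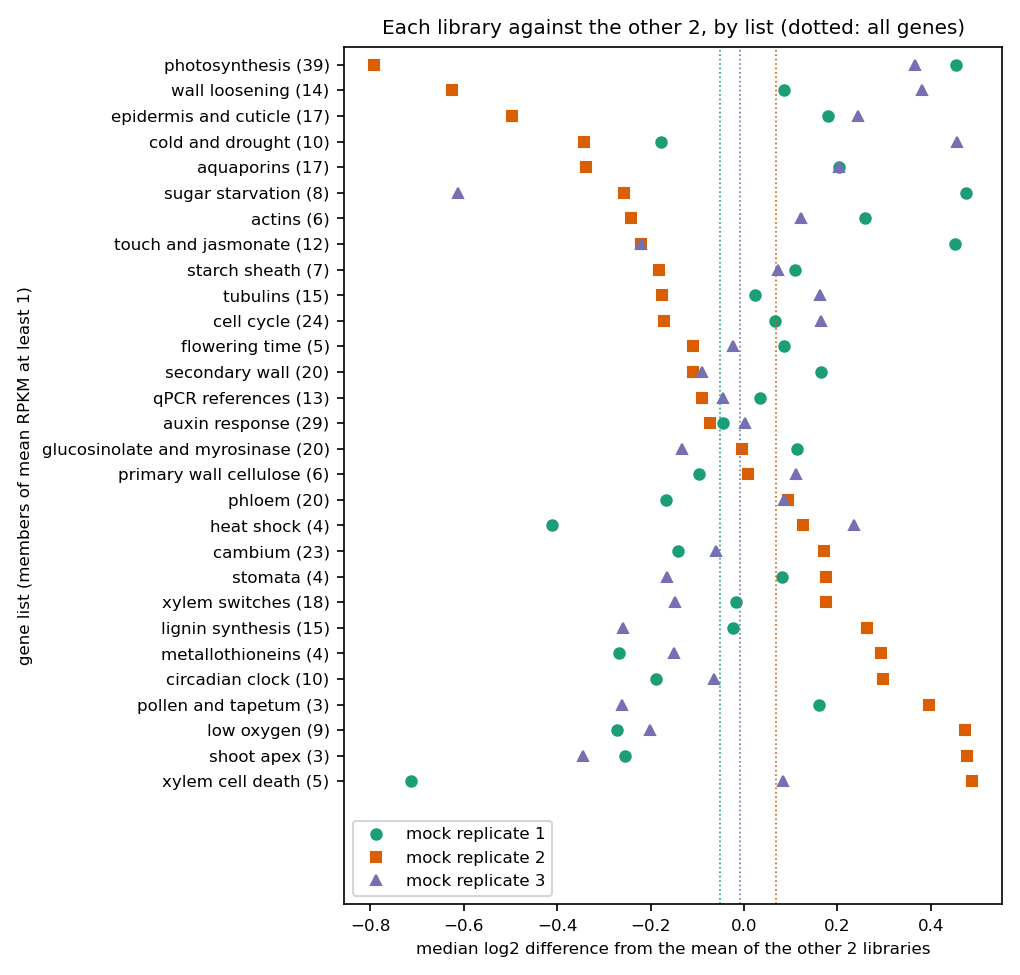
Median log2 difference of each mock replicate from the mean of the other libraries, for lists with at least 3 members of mean level 1 RPKM or more (their number in brackets), with dotted lines at the value for all genes. Replicate 2 runs from -0.79 for photosynthesis to 0.49 for xylem cell death, and replicate 1 is lowest for xylem cell death at -0.71.

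Over all 17421 genes of mean level 1 RPKM or more, the median SD between libraries was 0.17 on the log2(RPKM + 1) scale, with 0.06 and 0.42 at the 10th and 90th percentiles. It was 0.21 for genes of 1 to 10 RPKM and 0.15 for genes of 100 to 1000 RPKM, but 0.25 for the 63 genes above 1000 RPKM. The most abundant transcripts thus had a larger spread than those of middle level. They include members of the photosynthesis list, which had a median SD of 0.46 and was lowest in replicate 2 in 39 of 39 members. Abundance and this class of genes were not separated. The biological coefficient of variation estimated from the read counts by edgeR was 0.216, or 0.162 without replicate 2. Across genes, which are not independent replicates, log2 levels correlated at r = 0.982 between replicates 1 and 3, r = 0.970 between replicates 1 and 2 and r = 0.963 between replicates 2 and 3.

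Among genes of mean level 100 RPKM or more, the 10 with the highest SD were dominated by replicate 2, which was the lowest library in 9 and the highest in 1. *PCC1*, a pathogen- and clock-responsive gene, had 164, 20.2 and 280.2 RPKM, though only 45.2% of its reads were unique. *CA1* and *CA2*, carbonic anhydrases of green tissue, had 654, 164 and 703 RPKM and 199, 37.1 and 202 RPKM. *LHB1B1*, another light-harvesting gene, had 399.6, 66.9 and 226 RPKM. These 3 were not in the photosynthesis list, and replicate 2 was the lowest library in each (30.4% of all genes). Being picked for a spread that replicate 2 dominated, they are not separate support for the difference seen in that list. *GRP23*, a glycine-rich protein, had 168, 40.6 and 191 RPKM, AT2G45220, a pectin methylesterase family gene, had 198, 47.9 and 183 RPKM, and AT5G22580 had 598, 232 and 1081 RPKM. *MLP28*, of the major latex protein family, was the exception with 233, 767 and 199.5 RPKM.

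The 10 steadiest genes of that level were of mixed kinds. *BI1* (AT5G47120), BAX INHIBITOR1, a suppressor of cell death in the endoplasmic reticulum, had 189.9, 190.1 and 190.2 RPKM. *AVA-P4*, a proteolipid subunit of the vacuolar proton pump, had 134, 134 and 135 RPKM. AT4G34450, a subunit of the coatomer, had 135, 136 and 137 RPKM, and *YKT61*, a SNARE protein, had 111, 113 and 111 RPKM. AT3G03100, a subunit of mitochondrial complex I, had 145, 144 and 144 RPKM. The others were *SCPL49* at 124 ± 0.582 RPKM, *LAP1* at 158 ± 1.46 RPKM, AT5G35680 at 133 ± 1.15 RPKM, AT5G45350 at 117 ± 1.01 RPKM and AT4G24015 at 102 ± 1.12 RPKM. With 1324 genes ranked by an SD over 3 values, the lowest are in part a selection.

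**Figure D4:**
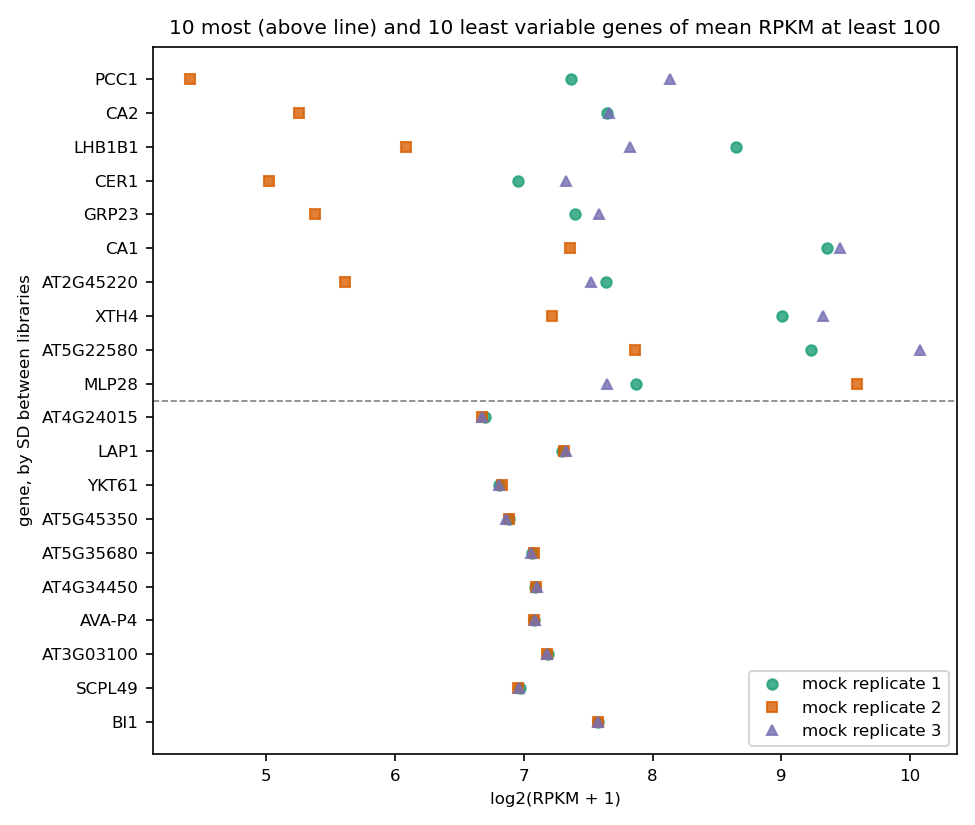
Level of the 10 most variable genes (above the dashed line) and the 10 least variable genes (below it) among those of mean level 100 RPKM or more, as log2(RPKM + 1), with a symbol for each mock replicate. In the upper group replicate 2 lies left of the others except for *MLP28*, and in the lower group the symbols overlap.

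In 395 of 17421 genes 1 library stood apart from both others, as defined above. Replicate 2 was apart in most of these, with 200 genes below (1.15% of all genes) and 50 above (0.287%). Replicate 3 had 67 genes above (0.385%) and 21 below (0.121%), and replicate 1 had 31 above (0.178%) and 26 below (0.149%). No cause of these differences was tested.

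The genes of highest level below in replicate 2 were *RBCS3B* and *RBCS2B*, given above, the uncharacterized AT5G42530 at 1463, 469 and 1217 RPKM, *ECS1* at 1171, 478 and 1235 RPKM, and *PSAO*, a subunit of photosystem I, at 1206, 528 and 1132 RPKM. Above in replicate 2 were *MLP28*, *TBL36*, of a family that acetylates wall polysaccharides, at 112, 244 and 117 RPKM, the lipid-transfer protein gene AT3G53980 at 93.9, 236 and 117 RPKM, AT1G76960 at 41, 88.2 and 40.7 RPKM, and AT3G08520 at 30.2, 78.5 and 36 RPKM, whose row has an exon length of only 78 bases.

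Replicate 1 stood above in *BGLU18*, a beta-glucosidase, at 362, 121 and 179.6 RPKM, AT2G22122 at 369, 128 and 120.1 RPKM, AT2G43550, a small cysteine-rich protein gene, at 255, 81.8 and 112 RPKM, *PGIP2*, an inhibitor of polygalacturonases, at 150.1, 56.3 and 61.6 RPKM, and *VSP1*. It stood below in *ETR2*, an ethylene receptor, at 12.9, 37.8 and 33.3 RPKM, AT1G18980 at 4.36, 10.8 and 12.8 RPKM, and AT5G18661 at 5.49, 13.6 and 18.5 RPKM. AT5G39160 (20.07, 63.8 and 55.2 RPKM, 11% unique reads) and *MAN6* (5.13, 16.3 and 12.5 RPKM, 34.5% unique reads) share most of their reads with near copies. *VSP1*, *BGLU18* and *PGIP2* are known as genes of wounding and defence.

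Replicate 3 stood above in AT5G22460 at 41.8, 36.2 and 102 RPKM, *MIPS1*, of inositol synthesis, at 31.1, 28.6 and 67.8 RPKM, *SAG21* at 28.2, 28.4 and 59.3 RPKM, AT4G14930 at 16.9, 19.1 and 51.2 RPKM and *PUB29* at 20.03, 19.9 and 45.3 RPKM. It stood below in *GRP9* at 55.1, 69.2 and 23.2 RPKM, *GolS1*, galactinol synthase, at 56.8, 58.9 and 27.5 RPKM, AT4G27450 at 46.6, 42.6 and 19 RPKM and *DIN10*, together with AT2G24945, which has no unique reads. *GolS1* and *DIN10* belong to gene families of raffinose synthesis, and in replicate 3 they were at -1.05 and -1.20 on the log2 scale from the mean of the other libraries.

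**Figure D5:**
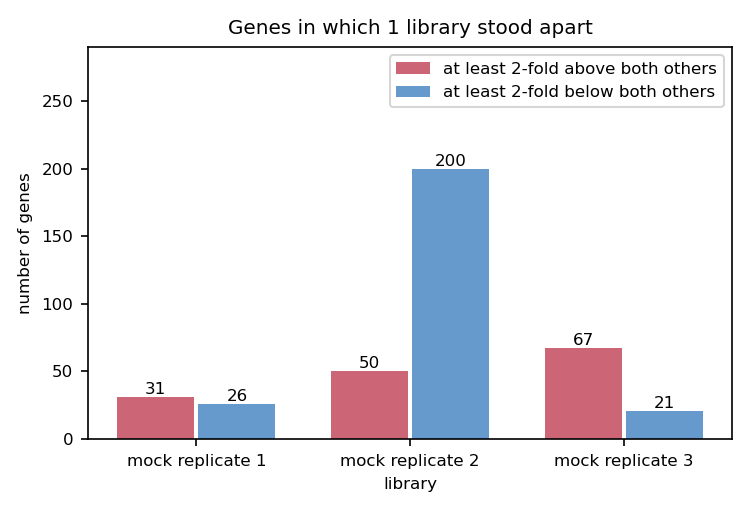
Number of genes (of 17421 with mean level 1 RPKM or more) in which 1 mock replicate was at least 2-fold above or below both others while those lay within 1.5-fold of each other. Replicate 2 has 200 genes below and 50 above, against at most 67 in any other bar.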

How the data were processed

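The authors made single-end reads of 50 nt from dUTP libraries, which mark strand, aligned them to TAIR10 in CLC Genomics Workbench and counted reads per gene; use of strand in counting and the annotation release are not given in the sources used here. The deposited tables hold counts of total and unique reads per gene, exon and intron. The deposited RPKM values are total exon reads per 1000 bases of exon and per 1000000 gene reads, and recomputing them from the counts gave every deposited value. Rows without identifier (5, 0.0881% of the reads) and rows of 2 repeated identifiers (4, 0.00644%) were left out. The 6118 rows without exon length have no RPKM.

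Levels, sums, SDs of log2(RPKM + 1) and counts of detected genes (at least 1 RPKM in all 3 mock libraries) were computed with Python 3.11.15, numpy 2.4.6 and pandas 2.3.3, and figures drawn with matplotlib 3.10.9. The coefficient of variation and the TMM and RLE factors came from total gene reads in edgeR 4.0.16 (R 4.3.3), in a fit without groups. The scripts were tested on simulated data. Names, products, coordinates and upstream sequence came from RefSeq TAIR10.1, which holds 32826 of 33314 identifiers. Identifiers sharing a name were compared by exon length: of 717 pairs, 9 came closer to the annotated lengths when exchanged.

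Genes were named by rule: the 20 highest by mean RPKM, up to 4 highest and 2 lowest members of each of 33 lists, genes the study names, the 10 most and 10 least variable genes of at least 100 RPKM, and for each library the 5 highest genes above and below both others. Further genes were named after their values were seen. The lists and genes were chosen with earlier results of these data known. Alternatives were other detection thresholds, pseudocounts, filters and scalings, unique reads and leaving out each library. Dex libraries were not used.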

Additional observations from a re-analysis of the deposited data

Results flagged for a closer look

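The rows without an exon length have no RPKM and entered none of the lists. Of these 6118 rows, 560 held more than 3 reads, the limit that a count of 0 allows, in each of the 3 mock libraries; no control samples exist for them. By annotation 155 were pseudogenes, 128 transcribed pseudogenes, 126 long noncoding RNAs and 101 other noncoding RNAs. The highest was AT3G41768, a ribosomal RNA, with 1868, 1885 and 1803 reads per 1000000 gene reads (mean 1852) and 5.31% unique reads. *SADHU1-1*, a retroposon pseudogene, had 382, 444 and 339 reads per 1000000 (mean 389), and the transcribed pseudogene AT1G05135 had 365, 313 and 348 (mean 342). The noncoding RNA *GUT15* had 235, 285 and 240.1 reads per 1000000 (mean 253), and AT1G10682 had 292, 185 and 264 (mean 247). Mock replicate 2 was highest for *SADHU1-1* and *GUT15* and lowest for AT1G05135 and AT1G10682.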

How the results depend on the processing

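No paired analysis was possible because only 1 group was described. The number of detected genes kept within 1.5 times its value under every alternative. It was 12589 at 5 RPKM, 18056 at 10 reads and 16861 to 16918 with 1 library left out. The share of reads in the 10 most abundant genes kept within 1 SD with unique reads, exon reads and nuclear genes only. Leaving out 1 of 3 libraries cannot move their mean by 1 SD, so that check could not fail for this share. It was the only alternative run for the photosynthesis sum, which was then 36845 to 47387 RPKM, lowest without replicate 1. The alternatives for the photosynthesis sum, and the count without rows fitting another gene of the same name (16648), were chosen after seeing the data. The median SD was 0.13 without a filter on low values and 0.11 to 0.16 with 1 library left out, lowest without replicate 2. An SD over 2 values tends to be smaller than an SD over 3, so these values compare only with each other. The coefficient of variation was 0.162 to 0.251 with 1 library left out. The count of genes with 1 library apart depended on the definition: 395 became 101 at 3-fold (replicate 1: 7 above and 5 below, replicate 2: 9 and 54, replicate 3: 23 and 3), 164 at a mean of 10 RPKM (10 and 4, 17 and 112, 13 and 8) and 620 with a pseudocount of 0.1 RPKM, which raised replicate 1 below to 75, replicate 2 above to 91 and replicate 3 below to 70. Replicate 2 below was the largest count in each. TMM scaling gave 418 and the unique share 351. Leaving out a library was not run here, since the definition needs 3. At 5 RPKM, 7 of 33 lists had over 1.5 times fewer members detected, and at 0.5 RPKM 1 list had more. Over all genes TMM and RLE scaling moved each library's median by less than 0.1 on the log2 scale. Members near or below 0.5 RPKM rest on few reads, since 10 reads over 1000 bases of exon correspond to between 0.392 and 0.437 RPKM.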

Other observations

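Other classes picked by product name were examined as values. Histone genes were detected in 43 of 53 cases and took 0.218, 0.219 and 0.213% of the reads in mock replicates 1, 2 and 3. Of 133 genes annotated as lipid-transfer proteins, 26 were detected; their summed level was 9197, 9166 and 8941 RPKM, of which the single gene AT2G45180 held 3525, 3235 and 3088 RPKM. *LTP1*, an epidermal lipid-transfer protein, had 26.8, 3.22 and 40.4 RPKM.

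Rows whose exon length came closer to another gene of the same name included both genes named *ARF1*, one an auxin response factor and the other a small GTPase. The row of AT1G59750, the auxin response factor, had a mean of 322 RPKM and that of AT1G23490 a mean of 28.6 RPKM, with exon lengths of 982 and 2599 bases in the table against 2353 and 1227 annotated bases. Pairs of like length that share a name, such as *ACT2*, could not be checked in this way.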
